A study of Mus musculus with 36 samples.

Results

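The Cyp2d genes lie side by side on mouse chromosome 15 and encode cytochrome P450 monooxygenases, and their DNA methylation was followed here in the livers of male and female mice of 2 inbred strains and of their hybrids. The rule took 9 genes, Cyp2d9, Cyp2d10, Cyp2d11, Cyp2d12, Cyp2d13, Cyp2d22, Cyp2d26, Cyp2d34 and Cyp2d40, and every CpG from 5000 bp upstream of a gene to 1000 bp past its end in the mm9 build. Of these genes, 8 had a gene model in the annotation used, and Cyp2d13 was not analysed here. The 8 intervals held 787 of the 18887127 autosomal CpGs with counts, or 201 at Cyp2d22, 104 at Cyp2d26, 96 at Cyp2d10, 85 at Cyp2d34, 79 at Cyp2d11, 77 at Cyp2d9, 76 at Cyp2d40 and 69 at Cyp2d12. The genes span chr15:82200958-82624675.

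Whole-genome bisulfite sequencing, which reads methylated and unmethylated cytosines apart, had been run on liver of 24 untreated mice in 8 groups of 3. The parents were C57BL/6N (B6) sires, B6 dams, C3H/HeN (C3) sires and C3 dams. The F1 mice were sons and daughters of a B6 dam and a C3 sire (B6C3F1) and of a C3 dam and a B6 sire (C3B6F1). The dams had been pregnant and had nursed, the daughters were virgin, and all mice were 20 weeks old. By the study's methods the mice came from 3 families of each cross, with a sire, a dam, a son and a daughter in each. Which mice formed a family is not given in the labels, and 12 FOXA1 ChIP and input samples were not analysed here.

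P450 enzymes of the Cyp2d subfamily sit in the endoplasmic reticulum of hepatocytes and add oxygen to drugs and steroids. Cyp2d9 is a steroid hydroxylase known for higher expression in male than in female mouse liver, a difference that follows the pattern of growth hormone release. Cyp2d22 has been proposed as the nearest mouse counterpart of human CYP2D6. CpG methylation near a start site is usually low where a gene is active in a tissue, and gene bodies are usually methylated.

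Autosomal totals ran from 365740739 to 619888157 counts per mouse, or 19.4 to 32.8 reads per CpG. In liver tissue, a lower share of a cell type and less methylation per cell cannot be told apart. Promoters of hepatocyte markers had group medians of 15.9 to 27.6% over 10 genes, against 81.4 to 86.8% over 6 tested of 7 Kupffer cell and leukocyte markers, 59.7 to 64.3% over 4 endothelial markers and 81.9 to 90.9% over 3 tested of 4 neuron and germ cell markers. Single promoters departed from these medians. The lowest endothelial promoter of a group was at 1.25 to 2.38%, and the lowest neuron and germ cell promoter at 2.20 to 3.73%. The highest hepatocyte promoter was at 53.3 to 64.3%. None of these 23 tested promoters was called in any of the 6 comparisons. Of all promoters, 0.00497 to 0.373% were called, so nothing is read from this count. By limma with Benjamini-Hochberg adjustment none had an adjusted p under 0.05 between the sexes. Median differences over the hepatocyte markers were 3.22 points in sires minus dams and -1.22 in sons minus daughters. They were 0.423 and 0.710 over the Kupffer cell and leukocyte markers. Endothelial markers had 0.198 and 0.392, and neuron and germ cell markers -0.557 and -1.54. The part of cell makeup in the sex differences was not tested. Expression was not measured here.

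The sequences just ahead of the start sites show how alike the members are, so the 150 bases before each start are printed 5′ to 3′ on the strand of the gene from the mm9 genome, with CpGs in capitals.
Cyp2d9 at chr15:82282657-82282806, strand plus: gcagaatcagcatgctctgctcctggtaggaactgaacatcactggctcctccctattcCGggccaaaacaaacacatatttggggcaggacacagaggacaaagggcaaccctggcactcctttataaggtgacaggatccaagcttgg
Cyp2d11 at chr15:82224453-82224602, strand minus: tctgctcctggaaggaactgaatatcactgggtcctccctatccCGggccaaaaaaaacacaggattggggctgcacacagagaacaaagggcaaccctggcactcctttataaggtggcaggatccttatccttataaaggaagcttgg
Cyp2d10 at chr15:82237625-82237774, strand minus: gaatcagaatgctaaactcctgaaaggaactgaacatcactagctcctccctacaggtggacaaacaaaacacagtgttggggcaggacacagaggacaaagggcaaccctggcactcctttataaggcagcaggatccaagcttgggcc
Cyp2d12 at chr15:82385388-82385537, strand plus: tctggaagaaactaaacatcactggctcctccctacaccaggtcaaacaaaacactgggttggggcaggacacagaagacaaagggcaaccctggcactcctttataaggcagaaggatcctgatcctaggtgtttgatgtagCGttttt
Cyp2d34 at chr15:82451338-82451487, strand minus: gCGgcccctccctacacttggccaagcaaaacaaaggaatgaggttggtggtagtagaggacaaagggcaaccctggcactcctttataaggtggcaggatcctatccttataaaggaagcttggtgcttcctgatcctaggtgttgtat
Cyp2d40 at chr15:82594614-82594763, strand minus: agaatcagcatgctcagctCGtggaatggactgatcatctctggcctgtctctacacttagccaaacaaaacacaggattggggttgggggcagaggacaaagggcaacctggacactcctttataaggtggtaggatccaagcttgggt
Cyp2d26 at chr15:82624676-82624825, strand minus: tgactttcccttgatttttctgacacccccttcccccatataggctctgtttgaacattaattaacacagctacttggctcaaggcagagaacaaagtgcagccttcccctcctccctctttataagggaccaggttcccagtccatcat
Cyp2d22 at chr15:82210691-82210840, strand minus: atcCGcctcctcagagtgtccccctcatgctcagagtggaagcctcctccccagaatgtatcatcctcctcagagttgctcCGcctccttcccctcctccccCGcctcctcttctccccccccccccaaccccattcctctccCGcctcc
Distances are given in bases from the start, negative ahead of it. Cyp2d9 and Cyp2d11 each held 1 CpG here, at -91 and -105, inside nearly the same letters, and Cyp2d10 and Cyp2d26 held none. The longest run that at least 5 members shared letter for letter was 32 bases, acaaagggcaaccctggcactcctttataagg, in Cyp2d9, Cyp2d10, Cyp2d11, Cyp2d12 and Cyp2d34. The word TTTATAAGG, which ends this run and resembles a TATA box, was searched on both strands from 250 bases before to 50 after each start. It occurred in 7 of 8 members, all but Cyp2d22, against 0.263% of 20114 autosomal promoters. AAGGGCAAC, also a word of the run, occurred in 6 of 8 members, all but Cyp2d22 and Cyp2d26, against 0.229% of promoters. As both words were taken from letters the members share, nothing is read from these shares. TTCCGG, known as a recognition word of the Ets factor GABP, occurred in 1 of 8 members, Cyp2d9, where its first base was at -94, against 18.95% of promoters. TTCNNNGAA, the word of STAT5, occurred in 0 of 8 members and in 7.68% of promoters. Each is a match of letters only.

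At the Cyp2d9 promoter, males were less methylated than females in both strains and both crosses. The promoter was taken as the 500 bp on either side of the start (chr15, position 82282807, plus strand) and held 6 CpGs with 108 to 224 reads per mouse. In B6 sires its methylation was 27.6, 22.1 and 41.9%, and in B6 dams 69.4, 61.4 and 63.8%. C3 sires had 24.2, 27.2 and 15.6%, and C3 dams 52.0, 56.1 and 47.1%. Every sire was below every dam. The same held in the crosses, where no son reached the level of any daughter. B6C3F1 sons had 16.8, 26.9 and 32.2% and B6C3F1 daughters 46.7, 51.6 and 47.7%. C3B6F1 sons had 34.1, 37.6 and 30.5% and C3B6F1 daughters 55.9, 62.8 and 60.8%.

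The 6 sires averaged 26.4% and the 6 dams 58.3%, a difference of -31.9 points (log2 of methylated over unmethylated counts -1.997 ± 0.197 SE, limma with Benjamini-Hochberg adjustment over all promoters, adjusted p = 4.9e-08). Between sons at 29.7% and daughters at 54.3% the difference was -24.6 points (log2 -1.51 ± 0.197 SE, limma adjusted p = 2.5e-05). A promoter was called at an adjusted p under 0.05 and a difference of at least 20 points. Of the 8 member promoters, 1 was called between sires and dams and 1 between sons and daughters, Cyp2d9 both times, while 0.104% of 20114 promoters were called in the first comparison and 0.0597% in the second (0.0497 and 0.0447% lower in males). Exact two-sided permutation tests of the same values, within strain or cross, gave p = 0.005 in both, the smallest that 400 arrangements allow. Sons and daughters of a cross came from the same 3 families, and sires and dams were mates, so the mice are not all unrelated. No test used the families, and the p-values measure the spread between these mice.

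**Figure D1:**
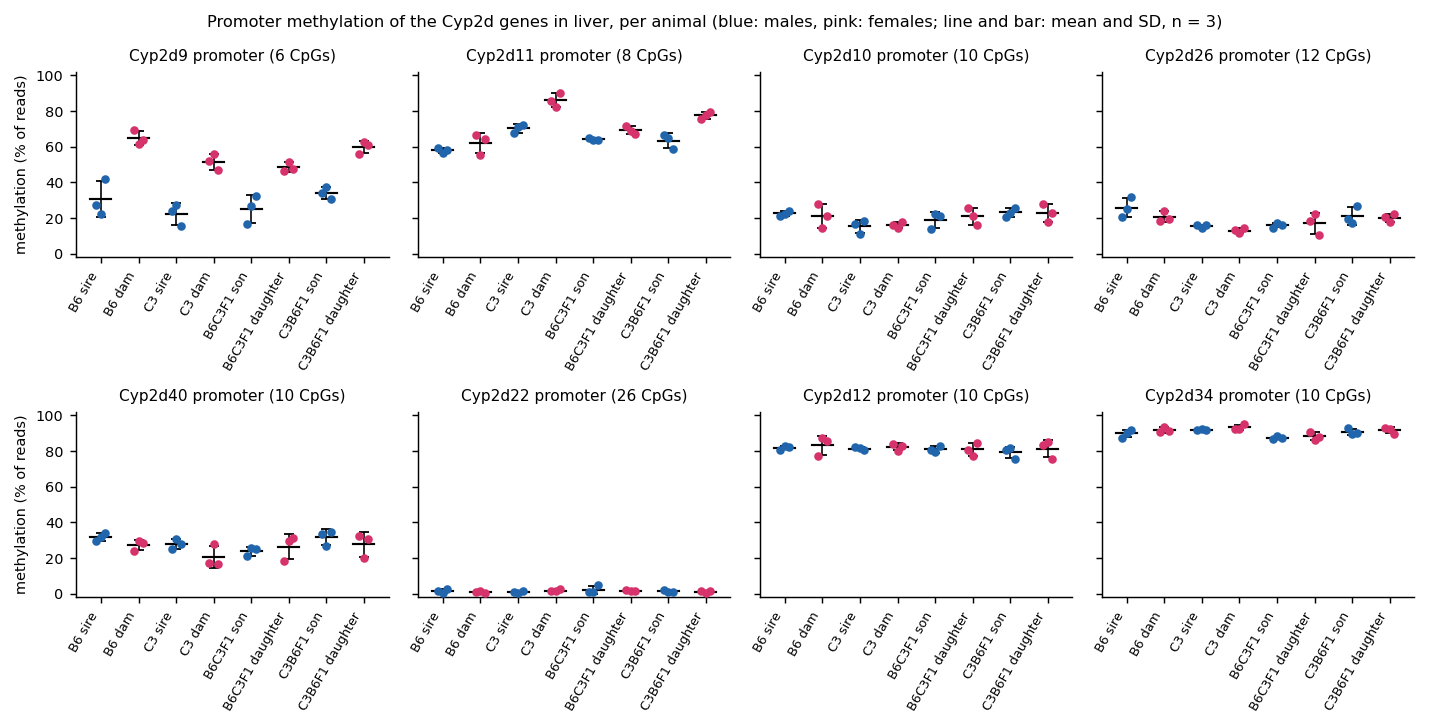
Promoter methylation (percent, y axis) of the 8 member genes in each mouse, by group, with lines at group means. At Cyp2d9 the 12 males lie between 15.6 and 41.9% and the 12 females between 46.7 and 69.4%, while the Cyp2d22 group means lie between 0.785 and 2.19%.

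The difference went beyond the promoter into the gene and past its end. Over the 43 CpGs of the Cyp2d9 body (chr15:82282807-82287257, 9 exons), B6 sires had 53.6, 55.3 and 54.7% and B6 dams 87.1, 86.8 and 84.9%. In C3, sires had 42.5, 45.5 and 44.3% and dams 79.6, 78.2 and 77.4%. The replicates of a group lay within a few points of each other, and the sexes were far apart. Body methylation was 49.3% in sires and 82.3% in dams, a difference of -33.0 points, and it was -28.0 points between sons and daughters. The 5 CpGs of the 1000 bp past the gene differed by -31.0 points in parents and -25.9 in the F1. The 29 CpGs of the upstream 5000 bp differed by -17.8 and -11.8 points. For all 3 regions, in parents and in F1 mice, the sexes did not overlap and the exact permutation p was 0.005, with no adjustment over the 32 gene regions tested.

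Single CpGs were tested with a beta-binomial Wald test over 6 against 6 mice, and a differentially methylated CpG (DMC) was one at a Wald p under 1e-05. Of the 77 CpGs at Cyp2d9, 38 were DMCs between sires and dams, or 49.4%, all lower in sires, while 0.0863% of all autosomal CpGs tested were DMCs (0.0609% lower in sires). Between sons and daughters 28 were DMCs, or 36.4%, all lower in sons, against 0.0428% (0.0401% lower in sons). Of these, 27 CpGs were DMCs in both comparisons. The falls ran from -21.2 to -65.5 points in sires, with a median of -45.2, and from -30.8 to -51.8 in sons, with a median of -40.1. The other 7 members together held 1 DMC between sires and dams among 703 CpGs tested.

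The DMCs of sires against dams began at -2789, and 20 of the 30 exonic CpGs, 8 of 13 intronic, 7 of 29 upstream and 3 of 5 downstream CpGs were among them. Farther upstream, 17 CpGs held no DMC and had group levels of 66.7 to 98.4%. A second run of 8 CpGs without a DMC lay from 3676 to 4372 bases past the start, with no group under 71.4%. Besides, 5 CpGs were under 35% in every group, at -2184, -1976, -1292, -91 and 5369.

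The upstream CpG at -645 had the lowest Wald p of the gene. At -645, methylation was 14.4% in B6 sires and 76.4% in B6 dams, 5.88% in C3 sires and 73.4% in C3 dams (Wald test with Benjamini-Hochberg adjustment over all CpGs, adjusted p = 3.1e-29). In the F1 it was 10.98 and 14.8% in sons and 60.0 and 61.0% in daughters of the B6C3F1 and C3B6F1 crosses. At -1674, males ranged from 10.2 to 25.0% by group and females from 57.5 to 72.2%. Between them, at -1292, all 8 groups lay between 7.78 and 17.5%, and farther upstream, at -2184, between 6.59 and 17.8%. Low CpGs thus lay among CpGs that differed between the sexes along this upstream stretch.

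Within the promoter, 4 of the 6 CpGs were DMCs between sires and dams and 2 between sons and daughters. The CpG inside TTCCGG, at -91, was not among them. It was at 14.3% in B6 sires and 33.3% in B6 dams, 19.4 and 22.0% in C3, 17.8 and 24.8% in B6C3F1 and 27.3 and 25.7% in C3B6F1 sons and daughters (adjusted p = 1 between sires and dams, Wald test with Benjamini-Hochberg adjustment). At -377, no group of males was above 36.3% and no group of females below 71.4%. In the first exon, 177 bases past the start, sires had 30.9 and 21.5% and dams 67.9 and 68.2% in B6 and C3. In the first intron, 311 bases past the start, B6 sires had 36.6%, B6 dams 73.5%, C3 sires 28.2% and C3 dams 60.9%. The CpG at 159 bases was a DMC in parents (32.8 against 67.4% in B6 and 22.2 against 50.6% in C3), and that at 165 bases was not (Wald adjusted p = 0.539).

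The 62 bases around the upstream CpGs with the lowest p, the TTCCGG CpG and the intronic CpG are shown on the plus strand of mm9, with the CpG measured in capitals, so that the CpGs that differed can be set beside the one that did not.
Cyp2d9 CpG -2628 at chr15:82280149-82280210: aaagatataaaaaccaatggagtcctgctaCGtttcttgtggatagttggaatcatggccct
Cyp2d9 CpG -1674 at chr15:82281103-82281164: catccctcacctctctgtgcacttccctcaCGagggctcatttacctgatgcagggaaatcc
Cyp2d9 CpG -645 at chr15:82282132-82282193: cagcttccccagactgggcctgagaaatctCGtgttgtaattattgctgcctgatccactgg
Cyp2d9 CpG -377 at chr15:82282400-82282461: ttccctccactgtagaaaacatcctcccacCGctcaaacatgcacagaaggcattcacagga
Cyp2d9 CpG -91 at chr15:82282686-82282747: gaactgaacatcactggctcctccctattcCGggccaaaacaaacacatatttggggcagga
Cyp2d9 CpG +311 at chr15:82283088-82283149: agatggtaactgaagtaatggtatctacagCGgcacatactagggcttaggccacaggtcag
All but the CpG at -91 were DMCs between the sexes in parents and in F1 mice. At -2628, sires had 46.4 and 37.8% and dams 88.9 and 92.9% in B6 and C3.

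**Figure D2:**
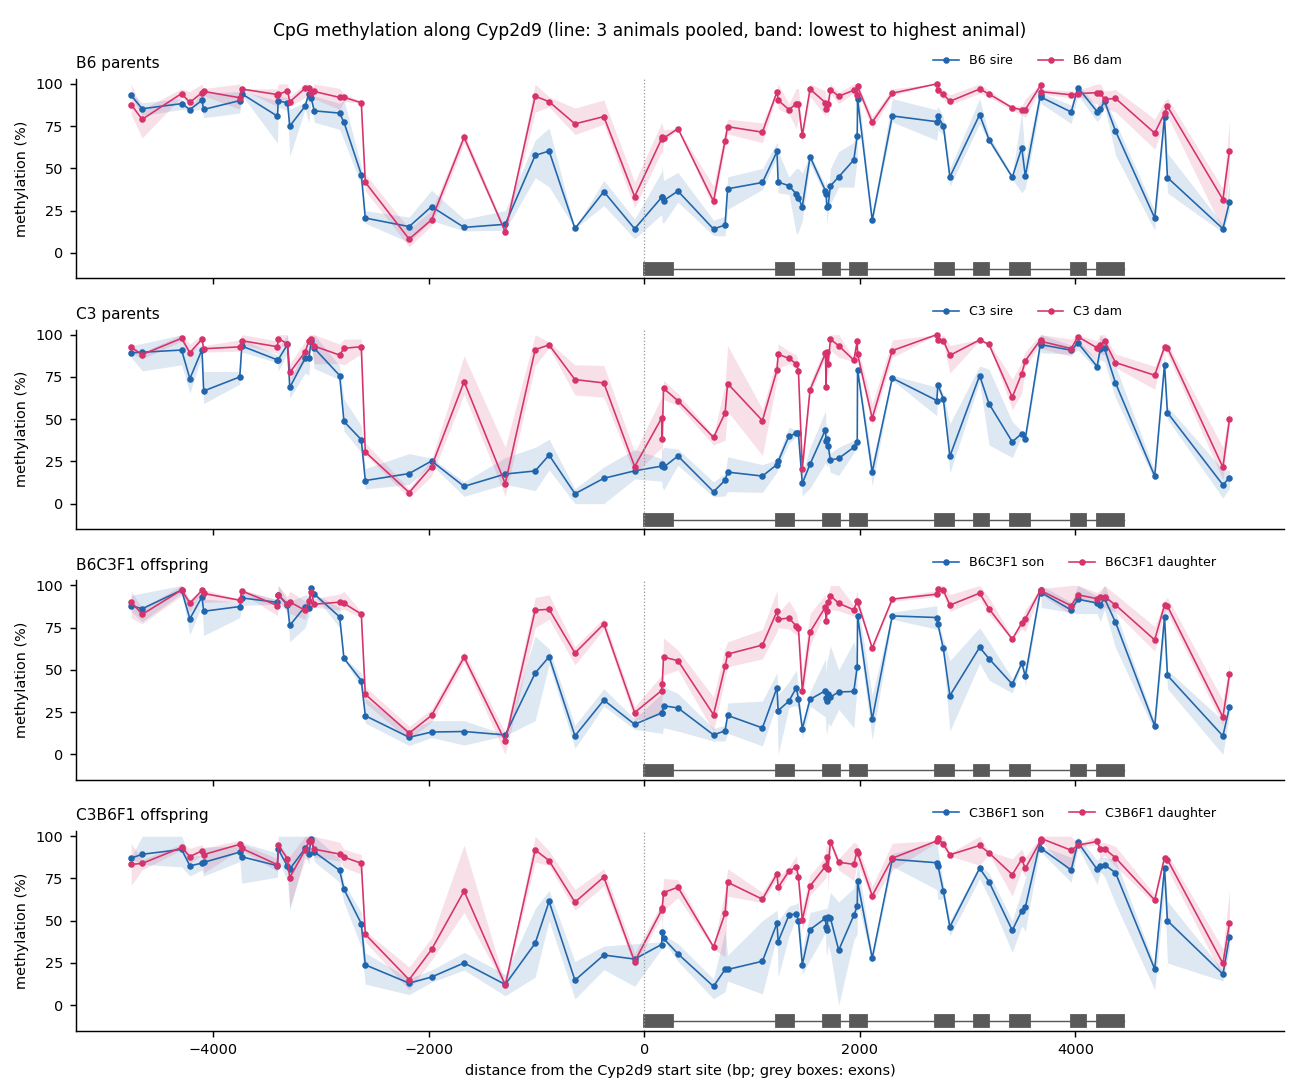
Methylation (percent, y axis) of each of the 77 Cyp2d9 CpGs against distance from the start site (bases, x axis), for males and females. Panels show B6, C3, B6C3F1 and C3B6F1. Lines are reads pooled over the 3 mice of a group, and bands run from the lowest to the highest mouse. Between -2789 and 3535 most female values lie above the male ones, and ahead of -2789 and from 3676 to 4372 all lines are high.

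Differentially methylated regions (DMRs) were runs of at least 5 CpGs, 75% of them DMCs, with a difference of at least 20 points. In parents, 2 DMRs touched the member intervals, both at Cyp2d9. Leaving out 1 mouse gave 1 to 3. The first, chr15:82281793-82286343, held 40 CpGs from -1014 to 3536 and covered exons 1 to 7. B6 sires had 44.7, 45.4 and 46.9% in it and B6 dams 83.9, 83.3 and 80.7%. C3 sires had 31.0, 36.2 and 34.2% and C3 dams 75.4, 73.6 and 73.2%. As these values chose the region, they are a description. The F1 mice had no part in choosing it, and there sons averaged 41.8% ± 6.12 (SD, n = 6) and daughters 74.3% ± 2.73 (SD, n = 6), a difference of -32.5 points (exact permutation p = 0.005). Sons were at 39.5, 40.2 and 34.5% in B6C3F1 and 51.4, 46.6 and 38.6% in C3B6F1, and daughters ran from 71.1 to 78.0%.

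The second DMR, chr15:82288237-82289727, began about 1 kb past the end of Cyp2d9 and ended 2470 bp past it. It held 6 CpGs, 1 of them in the Cyp2d9 interval. Sires of both strains were at 12.6 to 32.4% and dams at 59.0 to 74.2%. In the F1, sons averaged 22.0% and daughters 61.2%, a difference of -39.2 points (exact permutation p = 0.005). This DMR was not called without C3 sire replicate 1, C3 sire replicate 2 or B6 dam replicate 1. Sons and daughters gave 1 DMR of their own, chr15:82283555-82285643, with 25 CpGs from exon 2 to exon 5, which split into 2 without B6C3F1 son replicate 3. Over it, the parents, which had not been used to choose it, differed by -41.4 points, with sires at 42.1% and dams at 83.4% (exact permutation p = 0.005). CpGs in DMRs made up 0.0176% of all CpGs tested in parents and 0.00786% in the F1.

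Fixed windows of 500 bp were fitted in the same way as the promoters. Of the 116 member windows, 8 were called between sires and dams, all lower in sires and all at Cyp2d9, against 0.11% of 2580465 windows (0.0774% lower in sires). Between sons and daughters 6 were called, all lower in sons and all at Cyp2d9, against 0.0571% (0.0534% lower in sons). At an unadjusted p under 0.05, limma gave 31 and 24 member windows, against 11.7% and 6.82% of all windows. With at least 100 reads in every mouse, 2 member windows were called in each comparison, and with at least 5 CpGs 4 and 3, as fewer windows could be tested. With windows moved by 250 bp, 10 were called in the F1. The largest difference in parents was in the window chr15:82284001-82284500, where B6 sires had 38.7, 44.6 and 34.9%, B6 dams 88.6, 90.0 and 84.7%, C3 sires 25.3, 35.4 and 33.5% and C3 dams 73.8, 72.5 and 73.0% (-45.0 points, log2 -3.00 ± 0.166 SE, limma adjusted p = 2.9e-12). Its last 300 bases are shown on the plus strand, with the 6 CpGs in capitals, since this window differed most between sires and dams.
Cyp2d9 window at chr15:82284201-82284500: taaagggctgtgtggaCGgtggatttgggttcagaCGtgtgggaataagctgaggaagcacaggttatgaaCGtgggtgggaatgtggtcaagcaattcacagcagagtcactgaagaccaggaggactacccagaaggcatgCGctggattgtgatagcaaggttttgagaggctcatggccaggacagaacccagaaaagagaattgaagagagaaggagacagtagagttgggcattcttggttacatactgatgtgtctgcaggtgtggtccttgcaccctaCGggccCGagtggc
In the next window, from 82284501, the difference was -44.3 points (43.1% in sires, 87.5% in dams), and in the window from 82283501 it was -41.6 points (22.9 and 64.5%). Sons and daughters differed in these 3 windows by -35.9, -39.4 and -40.9 points. The other called windows of the F1 began at 82280001 (-26.6 points), 82285501 (-26.9) and 82287501 (-33.7). The first of these is upstream of the gene and the last lies past its end.

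The members are close copies, and reads of one gene could be placed on another. The coding sequence of Cyp2d9 was 93.3% identical to that of Cyp2d11, 92.5% to Cyp2d10, 92.1% to Cyp2d12, 89.6% to Cyp2d34, 84.6% to Cyp2d40, 81.8% to Cyp2d26 and 78.7% to Cyp2d22. Stretches of 100 bases that recur elsewhere in the cluster with C read as T made up 17.0% of the Cyp2d11 interval, 13.6% at Cyp2d9, 9.98% at Cyp2d12 and 6.26% at Cyp2d10, and 0 to 2.26% at the others. The 100 bases around the CpGs of Cyp2d9 at -1674, -645, +311 and +1726 matched another member without a mismatch. Those at +4736 and +4854, just past the gene and picked after their values were seen, had 14 and 17 mismatches to the nearest copy. At +4736, sires had 20.6 and 16.3% and dams 70.9 and 76.0% in B6 and C3, and sons 16.9 and 21.3% and daughters 67.7 and 62.2%. At +4854, sires had 44.6 and 53.8% and dams 86.7 and 92.4%.

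Of the 36 Cyp2d9 CpGs with at least 3 mismatches to the nearest copy, 15 were DMCs in parents (41.7%) and 10 in the F1 (27.8%). Of the 13 with at least 10 mismatches, 3 were DMCs in parents (23.1%) and 4 in the F1 (30.8%), all lower in males. Among the 41 CpGs with up to 2 mismatches the share was 56.1% in parents and 43.9% in the F1. The median difference was -33.8 points in parents and -26.7 in the F1 for CpGs with up to 2 mismatches, -18.7 and -13.4 for those with at least 3, and -13.7 and -6.78 for those with at least 10, so it was smaller where the copies differ more. Read depth over Cyp2d9, relative to the autosomal mean of each mouse, was 0.934 in males and 1.08 in females. Depth was also lower in males at each other member, as at Cyp2d22 (0.758 against 0.838), except Cyp2d26 (0.934 against 0.929). The part of misplaced reads in the methylation difference at Cyp2d9 was not tested.

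Cyp2d11 (start at chr15, position 82224452, minus strand) lies next to Cyp2d10 and had a smaller difference between the sexes. Its promoter held 8 CpGs. B6 sires had 59.5, 56.6 and 58.3% and B6 dams 66.4, 55.6 and 64.5%, while C3 sires had 67.7, 71.0 and 72.2% and C3 dams 85.9, 82.3 and 90.4%. The B6 sexes overlapped and the C3 sexes did not. B6C3F1 sons had 65.2, 63.6 and 63.6% and daughters 71.9, 69.0 and 67.4%. C3B6F1 sons had 66.5, 64.9 and 58.7% and daughters 75.7, 77.8 and 79.7%, so that no son reached any daughter.

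Sires and dams of both strains differed by -9.95 points (log2 -0.82 ± 0.144 SE, limma adjusted p = 0.00155) and the sons differed by -9.83 points from the daughters (limma adjusted p = 0.0271). Both passed the p threshold and not the 20 points. With only the 2 of 8 CpGs that had at least 10 reads in every mouse, the difference between sires and dams was -0.611 points (exact permutation p = 0.91). The test of whether the sex difference itself differed between the strains gave 11.8 points (log2 1.14 ± 0.289 SE, limma adjusted p = 0.353). Among the 27 upstream CpGs of Cyp2d11 the difference was -6.61 points in parents and -7.55 in F1 mice (exact permutation p = 0.005 in both).

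The single DMC of Cyp2d11 was 312 bases past its start in intron 1, where B6 sires had 33.3% and B6 dams 78.2%, C3 sires 59.1% and C3 dams 90.9% (Wald adjusted p = 0.000285). The bases around it are shown on the minus strand with those around the CpG at -105, which stands where Cyp2d9 has TTCCGG.
Cyp2d11 CpG +312 at chr15:82224110-82224171: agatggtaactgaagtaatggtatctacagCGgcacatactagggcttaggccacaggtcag
Cyp2d11 CpG -105 at chr15:82224527-82224588: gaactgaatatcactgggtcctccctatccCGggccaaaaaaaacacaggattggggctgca
The 62 bases at +312 are the same as those printed for Cyp2d9 at +311, and the 100 bases around both CpGs match without a mismatch, so reads from one gene could be counted at the other there. At -105, B6 sires had 60.9% and B6 dams 52.8%, C3 sires 49.4% and C3 dams 66.3% (Wald adjusted p = 1). Of 32 Cyp2d11 CpGs with at least 3 mismatches to the nearest copy, 0 were DMCs between sires and dams or between sons and daughters. Of the other 47, 1 was a DMC in parents and 0 in the F1. Over all CpGs tested the shares were 0.0863% and 0.0428%, so nothing is read from these counts.

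The promoters of the other 6 members lay at very different levels. Cyp2d22, with 26 promoter CpGs, had group means of 0.785 to 2.19%. Cyp2d10 had 15.4 to 23.2%, Cyp2d26 13.0 to 25.8% and Cyp2d40 20.5 to 31.8%. Cyp2d12 had 79.4 to 83.3% and Cyp2d34 87.5 to 93.3%. Cyp2d22 was lowest in every group, and Cyp2d34 highest. The group means of Cyp2d10, Cyp2d26 and Cyp2d40 overlapped each other, and those of Cyp2d9, from 22.3 to 64.9%, reached down into them. In C3 dams Cyp2d11, at 86.2%, was above Cyp2d12, at 82.4%. None of these 6 had an adjusted p under 0.05 between the sexes by limma, in parents or in F1 mice.

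Differences between sires and dams in these genes went both ways, and sex cannot be told apart there from pregnancy and nursing in the dams. The largest were at the 4 CpGs past Cyp2d10, at 64.7% in sires and 73.2% in dams (-8.50 points, exact permutation p = 0.02), and at the Cyp2d40 promoter, at 29.8% in sires and 23.9% in dams (5.91 points, exact permutation p = 0.04). In the F1 they were -2.53 and 0.773 points (exact permutation p = 0.45 and 0.82). The Cyp2d40 body had 76.5, 77.5 and 79.0% in B6 sires, 74.0, 76.5 and 75.1% in B6 dams, 77.3, 78.4 and 78.9% in C3 sires and 70.5, 71.9 and 73.6% in C3 dams, or 4.37 points more in sires (exact permutation p = 0.005). Its difference in the F1 was 1.48 points (exact permutation p = 0.15). The Cyp2d26 body was 4.31 points higher in sires (exact permutation p = 0.005), but 2.84 points with each CpG weighted equally (exact permutation p = 0.07), and differed by -1.34 points in sons (exact permutation p = 0.25). The Cyp2d22 body was at 50.01% in sons and 54.1% in daughters (-4.07 points, exact permutation p = 0.005). In parents its difference was -2.06 points (exact permutation p = 0.155). Of the 32 values of 4 regions in 8 genes, 11 had an unadjusted exact permutation p under 0.05 between sires and dams, 8 of them lower in sires, against 12.8% of 80746 such regions of all autosomal protein-coding genes (3.33% lower in sires). Between sons and daughters 8 did, 7 of them lower in sons, against 6.26% (2.78% lower in sons). Between the strains 12 did, 6 of them lower and 6 higher in B6, against 25.7% (19.9% lower in B6). All 4 regions of Cyp2d9 and the promoter and upstream region of Cyp2d11 were among the lower values of males in parents and F1. The other lower ones were upstream and downstream of Cyp2d10 in parents and the Cyp2d22 body in the F1. Higher in sires were 3 of the 32 values, near the share of 7681 of 80746 among regions of all genes. Nothing is read from this count. Promoter CpGs also count in the upstream and body regions, so the values overlap.

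**Figure D3:**
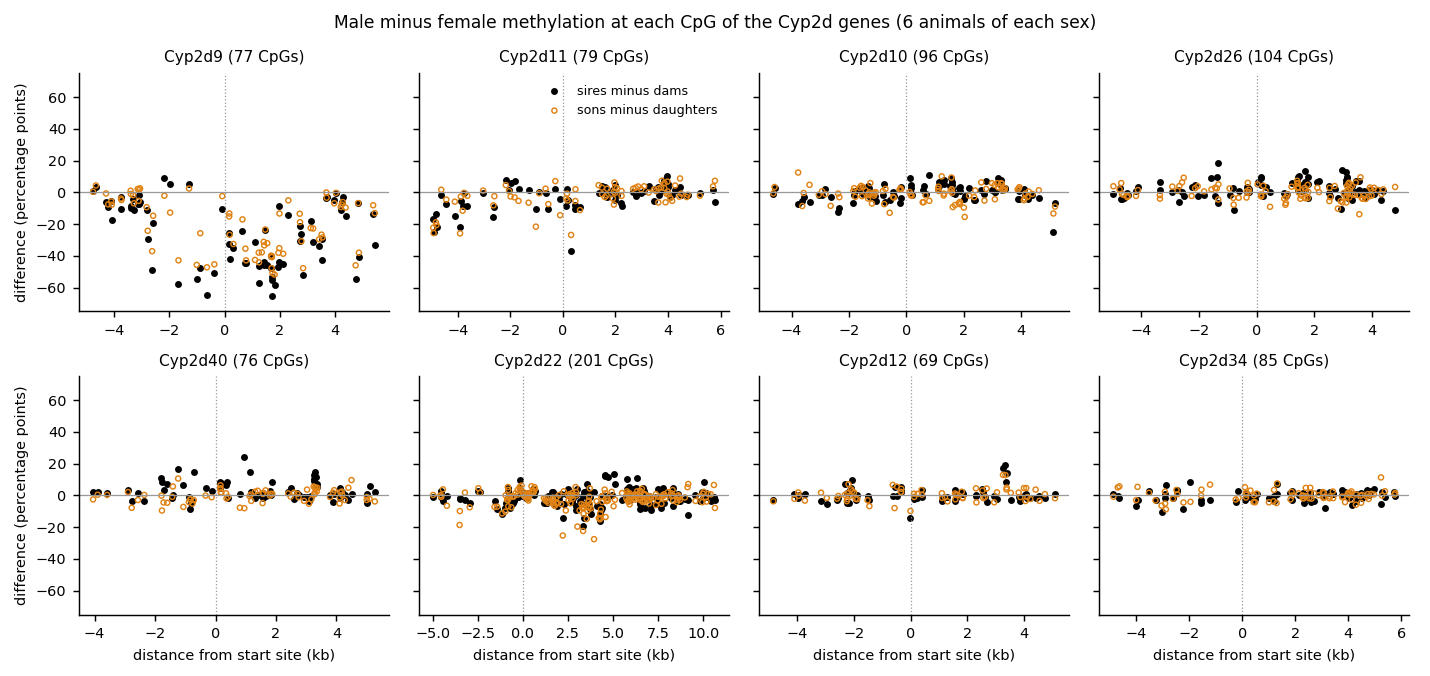
Difference in methylation (percentage points, y axis) of each CpG of the 8 member genes against distance from the start site (kb, x axis). Points are given for sires minus dams and for sons minus daughters. At Cyp2d9 the DMCs of sires against dams lie between -21.2 and -65.5 points.

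Between the strains, 0 member promoters, windows and DMRs were called, while 0.373% of promoters and 0.436% of windows were called. At an unadjusted p under 0.05, limma gave 5 of the 8 promoters and 38 of the 116 windows, against 21.5% of all promoters and 16.9% of all windows. By limma, Cyp2d11, Cyp2d9 and Cyp2d26 had adjusted p-values under 0.05 with differences of -18.1, 10.7 and 9.07 points in B6 minus C3, and so did 15 member windows, where 9.22% of all promoters and 4.81% of all windows had one. With a minimum of 10 points in place of 20, 2 member promoters and 9 windows were called, against 1.81% and 2.22% of all. The Cyp2d26 promoter had 20.9, 24.9 and 31.7% in B6 sires, 18.5, 24.2 and 19.6% in B6 dams, 16.04, 14.3 and 15.96% in C3 sires and 13.1, 11.6 and 14.3% in C3 dams (log2 0.84 ± 0.175 SE, limma adjusted p = 0.0012). Every B6 parent was above every C3 parent. F1 mice ranged from 10.8 to 26.8% and overlapped both strains. The promoters of the 10 hepatocyte markers also had a median difference of 4.18 points in B6 minus C3, with Cps1, Apoa2 and Fgb at an adjusted p under 0.05. The median was -2.36 points over the Kupffer cell and leukocyte markers, with Cd3e at an adjusted p under 0.05, and -2.18 over the endothelial markers. The part of cell makeup in the strain differences was not tested. The region past Cyp2d26 was lower in B6 by -11.9 points (exact permutation p = 0.005).

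The Cyp2d9 body was 9.16 points higher in B6 (exact permutation p = 0.005), with the strains overlapping because the sexes lay so far apart, and the promoter 10.7 points higher (limma adjusted p = 0.0208). The 1 strain DMC of the cluster was at Cyp2d9, 1465 bases past the start, with 27.4% in B6 sires and 69.5% in B6 dams against 11.9% in C3 sires and 20.7% in C3 dams (35.0 points pooled over sexes, Wald adjusted p = 0.00108). There the C3 groups had 159 and 140 reads and the B6 groups 73 and 95. The part of reads from other copies in the strain differences of Cyp2d9 was not tested. DMCs made up 0.373% and CpGs in DMRs 0.0967% of all CpGs tested between the strains. The Cyp2d11 promoter differed by -18.1 points (log2 -1.33 ± 0.144 SE, limma adjusted p = 5.5e-08), with all 6 B6 parents below all 6 C3 parents.

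Cyp2d11 was the member where the strains differed most in read depth. Scaled to the autosomal mean of each mouse, depth over Cyp2d11 was 0.631 to 0.713 in the 6 C3 parents and 0.931 to 1.05 in the 6 B6 parents, a ratio of C3 to B6 of 0.703. F1 mice ran from 0.675 to 0.987. The ratio was 1.18 at Cyp2d9, 1.07 at Cyp2d10, 1.06 at Cyp2d34, 1.05 at Cyp2d26, 1.04 at Cyp2d40, 1.02 at Cyp2d12 and 1.00 at Cyp2d22. In C3, 23 of the 79 Cyp2d11 CpGs had under 10 reads per mouse on average, against 0 in B6. The interval also held 27 single-nucleotide variants of the deposited list, or 2.48 per kb against 0.985 on all of chromosome 15. That list gives the bases of mm9, B6 and C3, and whether B6 and C3 differ at each position was not checked. Of the 91 CG positions of the interval in mm9, 12 were not in the count tables. No listed variant lay in the promoter of any member.

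With the Cyp2d11 promoter limited to the CpGs with at least 10 reads in every mouse, 2 of its 8, the difference between the strains was -0.535 points (exact permutation p = 0.9). Its body, -3.17 points in B6 minus C3 (exact permutation p = 0.005), then had 14 of 49 CpGs left and a difference of 1.11 points (exact permutation p = 0.255). The part of reads from other copies, and of reads lost in C3, in the Cyp2d11 values was not tested. Under the same limit Cyp2d9 kept its 6 promoter CpGs, with -31.9 points between sires and dams, and 41 of its 43 body CpGs, with -32.7 points.

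**Figure D4:**
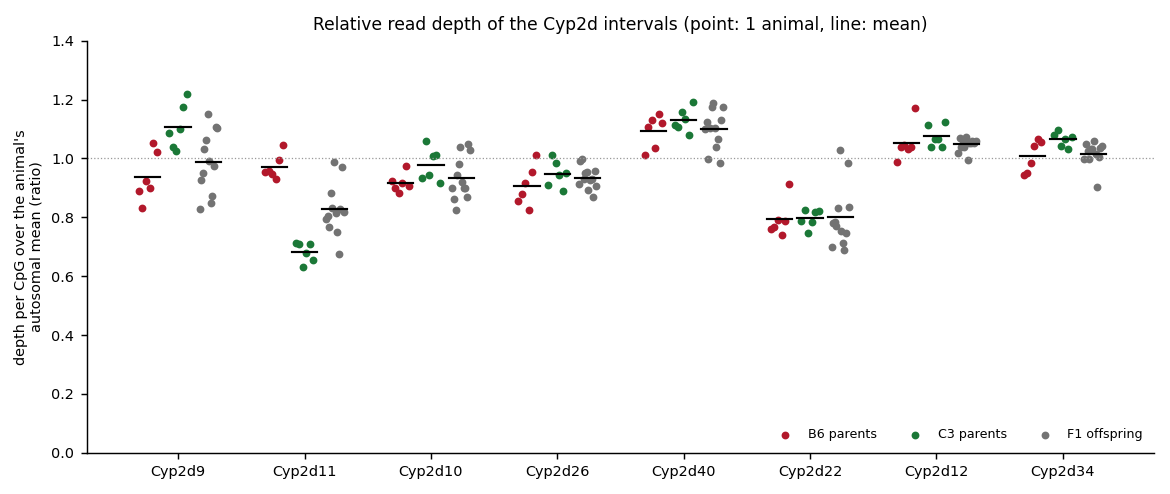
Read depth per CpG over each member interval divided by the autosomal mean of the same mouse (ratio, y axis), with points for B6 parents, C3 parents and F1 mice and lines at means. At Cyp2d11 the C3 parents lie between 0.631 and 0.713 and the B6 parents between 0.931 and 1.05.

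Dams and daughters differ in pregnancy and nursing but also in genotype, which cannot be told apart here. By limma 0 of 8 promoters and 0 of 116 windows were called, against 0.0199% and 0.0179% of all, with 1 and 12 at an unadjusted p under 0.05 (6.72% of all promoters and 7.5% of all windows). The Wald test gave 0 DMCs among 780 CpGs, with 16 at an unadjusted p under 0.05 (1.38% of all CpGs), against 0.0151% of CpGs as DMCs and 0.00237% in DMRs. For the Cyp2d9 promoter the difference was 4.04 points (log2 0.24 ± 0.197 SE, limma adjusted p = 0.909). Reciprocal crosses gave 0 called promoters and windows against 0.00497% and 0.000465%, with 3 and 16 at an unadjusted p under 0.05 by limma (7.26% and 6.3% of all). B6C3F1 minus C3B6F1 at the Cyp2d9 promoter was -9.99 points (limma adjusted p = 0.438). The test of whether the sex difference differs between B6 and C3 also called 0 of the promoters and windows, against 0.00497% and 0.000581%, with 2 and 9 at an unadjusted p under 0.05 by limma (6.93% and 5.34% of all). Its value for the Cyp2d9 promoter was -4.93 points (limma adjusted p = 0.971).

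Around the cluster, 14 protein-coding genes within 200 kb of the members were tested and 0 promoters were called by limma in any of the 6 comparisons, with 3 at an unadjusted p under 0.05 between sires and dams (8.69% of all promoters) and 1 between sons and daughters (5.93%). That one, Gm5062, which starts inside the cluster, differed by -9.62 points, lower in sons (60.7 and 62.2% in sons, 72.4 and 69.7% in daughters, limma adjusted p = 0.0446), and between sires and dams it differed by -5.91 points (limma adjusted p = 0.368). Between the strains Gm5806 differed by -4.01 points (limma adjusted p = 0.000414). Both passed the p threshold and not the 20 points, and were named after their values were seen. Of 16 genes for factors and partners of hepatic P450 enzymes, such as Hnf4a, a nuclear receptor of hepatocytes, Stat5b, which carries the growth hormone signal, Gabpa, a subunit of GABP, and Por, the reductase that passes electrons to P450 enzymes, 15 were tested and 0 were called by limma, with 1 at an unadjusted p under 0.05 between sires and dams. In the 6 comparisons 0.00497 to 0.373% of all promoters were called, so nothing is read from 0 of the 15 or 0 of the 14. At an unadjusted p under 0.05, limma gave 5 of the 15 and 3 of the 14 between the strains, against 21.5% of all promoters. Between sons and daughters it gave 1 of the 15. Between the strains Cyb5r3, a reductase of cytochrome b5, differed by 6.74 points (limma adjusted p = 0.0356), short of the 20 points, and was likewise picked by its value. Its sires were at 39.5% in B6 and 24.6% in C3, while its dams, at 29.9 and 31.3%, went the other way. Group medians of the 15 tested genes were at 0.441 to 0.674%, so most of these promoters were near 0 in every group. Over these 15 genes the median difference between sires and dams was 0.0386 points, against -0.614 over the 8 members.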

How the data were processed

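The deposited tables held, per the file headers, counts of methylated and unmethylated reads per CpG for 24 liver libraries. They also held the authors' list of single-nucleotide variants, with the bases of mm9, B6 and C3. According to the submitters' processing notes, reads passed CASAVA 1.8.2 and were mapped with Bismark 0.7.8 and Bowtie 0.12.8 to mm9 with lambda DNA. The study's methods add removal of duplicates with a Bismark tool and a filter on base quality, and keep CpGs present in both strains. Counts were used as deposited, without merging replicates, and 0 columns were left unmapped.

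Starts were the 5′ ends of the transcript with the longest coding sequence in GENCODE vM1 on NCBIM37. Counts were summed over promoters (500 bp on either side) or 500 bp windows with at least 3 CpGs and 30 reads in every mouse, and log2((methylated + 1)/(unmethylated + 1)) was fitted with limma 3.58.1 (R 4.3.3) over all autosomal features, 8 group means and no replicate block. Sexes were compared in parents and F1 mice, strains in parents, dams with daughters, and reciprocal crosses with each other. DSS was not installed, so its Wald test was rewritten in Python 3.11.15 (numba 0.67.0, no smoothing), for CpGs where 5 or more reads covered 50% or more of the mice on each side. DMRs were runs of 3 CpGs over 50 bp, merged within 100 bp. Region values were read-weighted percentages per mouse, tested by exact permutation within strain, cross or sex, also over all autosomal protein-coding genes. Intervals and p-values cover the spread between mice, and depth enters through the counts. Both fits were tested on simulated data. Alternatives were another pseudocount, scale, window, read minimum, DMC threshold, the replicate number as a block, and leaving out each mouse.

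All members were described. Every DMR was named, as were all called windows up to 6 per comparison and otherwise the 3 with the largest difference, and promoter CpGs of members with a call. The members, lists and rules were chosen with earlier results of these data known, and the further CpGs and the split by mismatches to the nearest copy were chosen after their values were seen. Promoter tables of another build were not used.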

Additional observations from a re-analysis of the deposited data

How the results depend on the processing

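The Cyp2d9 promoter call between the sexes held under each alternative run, and leaving out any 1 mouse left 1 member promoter called in parents and in F1 mice. Called windows stayed at 8 in parents and ran from 6 to 7 in F1 mice without 1 mouse. They fell to 2 in both comparisons with at least 100 reads, to 4 and 3 with at least 5 CpGs, where fewer windows can be tested, and rose to 10 in F1 mice with windows moved by 250 bp. With a minimum of 10 points, 2 promoters and 9 windows were called between the strains in place of 0, against 1.81% of all promoters and 2.22% of all windows. DMRs between sires and dams numbered 1 to 3 without 1 mouse (1 without C3 sire replicate 2 or B6 dam replicate 1) and 1 with a DMC share of 50%, against 2, and between sons and daughters 1 to 2 (2 without B6C3F1 son replicate 3) and 2 with a DMC share of 50%, against 1. Without either of those parents, or without C3 sire replicate 1, the region past the gene was lost, while with a DMC share of 50% both regions fell within 1 longer one. Gene regions with an exact permutation p under 0.05 numbered 9 to 12 between sires and dams and 10 to 14 between the strains without 1 mouse. Without B6 sire replicate 3 or C3 sire replicate 3, the strain difference of the Cyp2d9 promoter was 7.88 or 9.03 points (exact permutation p = 0.05 and 0.06). Without scaling to the autosomal mean, the depth ratio at Cyp2d11 was 0.643, and it was 0.697 to 0.714 without 1 mouse. With each CpG weighted equally, the Cyp2d26 body differed by 2.84 points between sires and dams (exact permutation p = 0.07). The Cyp2d11 body between the strains reversed to 1.11 points with CpGs of at least 10 reads in every mouse. The cause of the other shifts was not tested. Added after seeing the data, the share of DMCs at Cyp2d9 was 41.7% and 23.1% in parents, and 27.8% and 30.8% in F1 mice, for CpGs with at least 3 and at least 10 mismatches to the nearest copy.

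Same-numbered mice of different groups had deviations with a median correlation of 0.0341 (range -0.136 to 0.238 over 84 pairs), against -0.0134 for different numbers. Over 0.1 were 10 of these 84, and 11 of 168 pairs with different numbers. Among B6 sires, C3 dams, C3B6F1 sons and C3B6F1 daughters, every pair of groups had only positive values (0.129, 0.0792 and 0.0906 between these sons and daughters). B6C3F1 sons, from the other cross, also had only positive values with each of these groups and with B6C3F1 daughters. Only C3 sires with C3B6F1 sons or daughters had only negative ones. In the other cross, B6 dams with B6C3F1 sons had 0.0458, -0.124 and -0.0786. Pairing by replicate number was thus not established by these data. Whether a number marks a family is not given in the labels. With the replicate number as a block, 1 promoter and 8 windows were called between sires and dams and 1 and 6 between sons and daughters, as without it. Depth limits the Cyp2d22 promoter, where scaled depth was 0.497 in B6 and 0.487 in C3, and Cyp2d11 in C3.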
